A study of Mus musculus with 10 samples.

Results

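The TRP, polycystin, Piezo, acid-sensing, epithelial sodium, TMC and TMEM63 families include channels that turn touch, stretch, acid, temperature and irritants into cation currents. Not every member is such a sensor. The genes described here are the protein-coding genes of these families, chosen by name alone from the deposited gene table and not by their counts. The rule takes symbols that begin with Trpa, Trpc, Trpm or Trpv and a digit, Pkd1 or Pkd2, Piezo, Asic, Scnn, Tmc or Tmem63, and it found 52 of the 54532 genes listed. Of these, 50 encode channel subunits or their polycystin partners. The other two, Trpc4ap and Trpc5os, carry a channel's symbol but encode no channel.

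RNA came from small intestinal epithelium of 5 litter-matched Gucy2c-GFP mice aged 10 weeks, kept on the outbred CD1/ICR stock, in which the Gucy2c promoter drives GFP. GUCY2C is the guanylyl cyclase receptor for the gut hormones guanylin and uroguanylin. Each mouse gave 20000 sorted cells of high GFP fluorescence (GUCY2Chi) and 20000 of medium fluorescence (GUCY2Cmed, called both Medium and Lo in the labels), in 10 libraries that share the reporter and no treatment. GFP marks cells in which the Gucy2c promoter is active, so the gate and not a lineage defines each group. The libraries of each group carry the numbers 2, 7, 12, 14 and 15. Each mouse gave cells to both groups, and libraries with the same number were taken to come from the same mouse. The labels do not state this pairing.

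Reads counted on genes numbered 13090212 to 13520800 in GUCY2Chi libraries and 10903958 to 15307932 in GUCY2Cmed libraries. All 14 enteroendocrine marker genes, such as Chga and Neurod1, were higher in GUCY2Chi cells, with a median log2 fold change of 8.14, and none of 12 enterocyte marker genes was. GUCY2Chi libraries were unequal: the summed enteroendocrine markers ran from 6051 to 61531 cpm (counts scaled to a common library total) and the summed enterocyte markers from 2592 to 27644, against 48163 to 65979 in GUCY2Cmed cells. Mice 12 and 15 gave the GUCY2Chi libraries with the most enterocyte RNA, 27159 and 27644 cpm, and the least enteroendocrine RNA, 24210 and 6051 cpm. In sorted bulk RNA, fewer cells of a type and less RNA per cell cannot be told apart.

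Several of these channels are established sensors of enteroendocrine cells, the scattered hormone-releasing cells of the gut lining. TRPA1, the receptor for mustard oil and other irritants, drives serotonin release from enterochromaffin cells, the serotonin-making type. PIEZO2, the touch receptor of skin and proprioceptive neurons, does the same for mechanical force. TRPV6 takes up calcium and TRPM6 magnesium at the brush border of absorptive cells, and TRPM5 carries the taste-type signal of tuft cells, the chemosensory cells of the epithelium.

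The comparison asked which of these channel genes differed in RNA level between GUCY2Chi and GUCY2Cmed cells of the same mice. Levels are TMM-normalized cpm, in which library totals are rescaled by edgeR's trimmed mean of M-values, and means carry the SD over 5 mice. A gene was tested when more than 0.5 cpm was counted in at least 3 libraries, and called when the Benjamini-Hochberg adjusted p of edgeR's quasi-likelihood test, taken over all 15703 genes tested, was under 0.01. Log2 fold changes are GUCY2Chi over GUCY2Cmed and carry a standard error (SE). Of the 52 genes 34 could be tested, 33 of them channel genes. In GUCY2Chi cells 10 of the 34 were higher and 3 were lower, which is 29.4% and 8.82% of those tested. Over all genes tested, 13.9% were called higher and 8.79% lower, 22.7% in all. The median log2 fold change was 0.60 over the 34 genes and 0.094 over all genes tested. Of the 34, 5 reached the filter through GUCY2Chi libraries alone (Trpa1, Trpm2, Tmc3, Asic4 and Tmem63c) and 2 through GUCY2Cmed libraries alone (Trpm6 and Trpv3). For these 7 the filter itself favoured a higher level in that group. Trpa1, Trpm2 and Tmc3 were called, and Asic4, Tmem63c, Trpm6 and Trpv3 were not. The counts of calls therefore say nothing of the families as a whole.

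The 10 genes that were higher encode irritant, bile acid, oxidant, receptor-operated and stretch-related channels. They are Trpa1, Asic5, Trpm2, Trpc4, Tmc3, Trpc7, Trpc1, Pkd2, Pkd1 and Tmem63a. Each was higher in 5 of 5 mice, and in each every GUCY2Chi library lay above every GUCY2Cmed library. Trpm4, Tmc5 and Tmc8 were lower in 5 of 5 mice, again without overlap. Of the 10 higher genes 9, all but Trpc1, were also called when each library was left out in turn. Groups did not overlap for 15 of the 34 tested genes and for 29.9% of all genes tested.

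**Figure D1:**
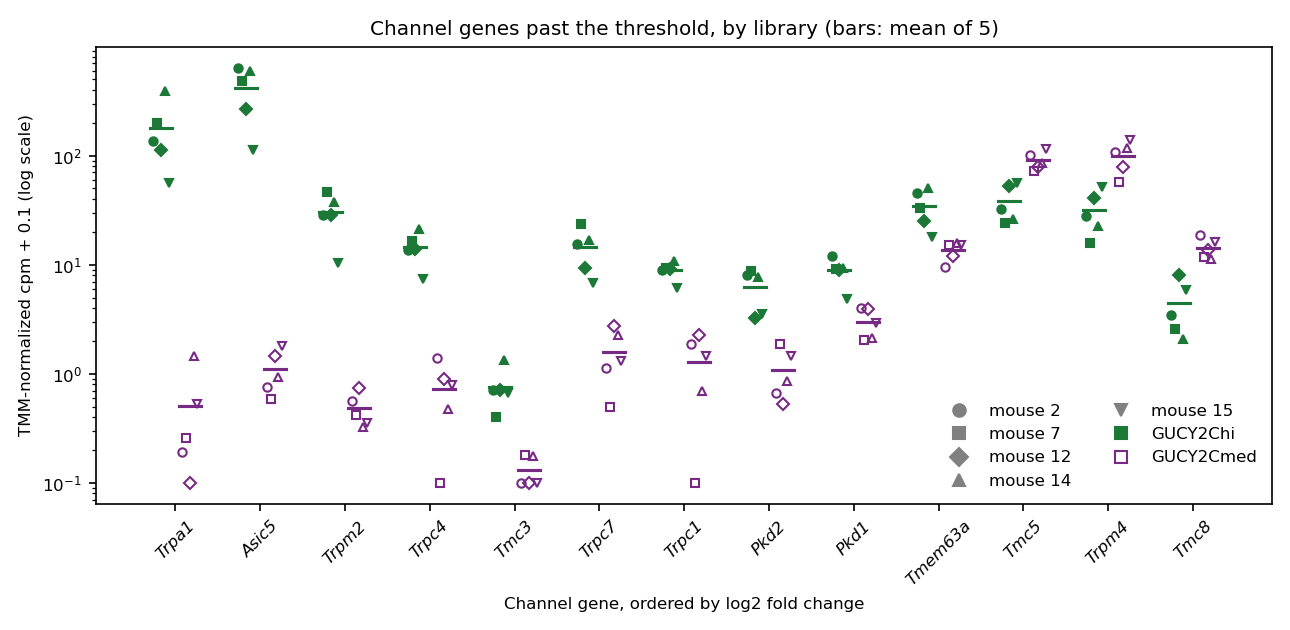
TMM-normalized cpm plus 0.1 (log scale) of the 13 channel genes with an adjusted p under 0.01, ordered by log2 fold change. Each symbol is 1 library, the shape gives the mouse, filled symbols are GUCY2Chi and open symbols GUCY2Cmed cells, and bars are means of 5. Asic5 reached 638 cpm and Trpa1 392 cpm in GUCY2Chi cells, and neither exceeded 1.71 cpm in GUCY2Cmed cells.

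Trpa1 (ENSMUSG00000032769, chromosome 1, 14872648 to 14918862 on GRCm38) was counted at 136, 199, 113, 392 and 55.4 cpm in GUCY2Chi cells of mice 2, 7, 12, 14 and 15. In GUCY2Cmed cells of the same mice it was at 0.0936, 0.161, 0, 1.35 and 0.428 cpm. The lowest GUCY2Chi library, from mouse 15, therefore lay far above the highest GUCY2Cmed library, from mouse 14. Means were 179 ± 130 and 0.407 ± 0.552 cpm (SD, n = 5), with a log2 fold change of 8.72 (SE 0.88, edgeR adjusted p = 3.92e-05). Trpa1 also held the widest spread among the higher genes in GUCY2Chi cells, 7.07-fold between mice 14 and 15.

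Asic5 encodes the bile acid-sensitive member of the acid-sensing channel family. The gene (ENSMUSG00000028008, chromosome 3, 81982290 to 82021233) stood at 638, 481, 266, 597 and 114 cpm in GUCY2Chi cells of mice 2, 7, 12, 14 and 15 and at 0.655, 0.482, 1.37, 0.826 and 1.71 cpm in their GUCY2Cmed cells. Mouse 15 had both the lowest GUCY2Chi and the highest GUCY2Cmed library, and the groups remained far apart. Mean levels were 419 ± 224 and 1.01 ± 0.515 cpm (SD, n = 5), and the log2 fold change was 8.68 (SE 0.62, edgeR adjusted p = 4.90e-06).

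Trpm2 encodes a calcium-permeable channel opened by ADP-ribose and oxidative stress. Its levels in GUCY2Chi cells (ENSMUSG00000009292, chromosome 10, 77907722 to 77970563) were 28.3, 45.8, 28.3, 37.6 and 10.3 cpm in mice 2, 7, 12, 14 and 15, and in GUCY2Cmed cells 0.468, 0.321, 0.648, 0.225 and 0.257 cpm. No GUCY2Cmed library reached 1 cpm, and again mouse 15 gave the lowest GUCY2Chi value. The log2 fold change was 6.25 (SE 0.47, edgeR adjusted p = 6.41e-06) between means of 30.1 ± 13.3 and 0.384 ± 0.175 cpm (SD, n = 5).

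TRPC channels open downstream of phospholipase C when hormone and transmitter receptors are stimulated. Of the 7 Trpc channel genes 4 were tested and 3, Trpc4, Trpc7 and Trpc1, were higher in GUCY2Chi cells. TRPC1 joins TRPC4 or TRPC5 in mixed channels, whereas TRPC7 is gated by diacylglycerol. Polycystin 2, the product of Pkd2, is a TRP-type channel that assembles with polycystin 1, the product of Pkd1, and can also pair with TRPC1. The 250 bases before the start site of Trpc4, Trpc1 and Pkd2 are shown because the encoded subunits can share channels and the 3 genes were higher together. The sequences are those of RefSeq on GRCm38.p6, 5′ to 3′ on the coding strand, and capitals mark matches to the E-box form CAGATG, to the TATA box TATAAA and to the GC box GGGCGG, or to the reverse complement of any of them. No match overlaps another.
Trpc4: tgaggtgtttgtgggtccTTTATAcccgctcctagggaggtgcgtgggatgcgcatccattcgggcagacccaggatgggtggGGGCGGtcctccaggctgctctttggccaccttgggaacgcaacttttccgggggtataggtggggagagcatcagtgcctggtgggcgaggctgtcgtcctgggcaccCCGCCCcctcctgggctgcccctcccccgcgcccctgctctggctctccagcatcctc
Trpc1: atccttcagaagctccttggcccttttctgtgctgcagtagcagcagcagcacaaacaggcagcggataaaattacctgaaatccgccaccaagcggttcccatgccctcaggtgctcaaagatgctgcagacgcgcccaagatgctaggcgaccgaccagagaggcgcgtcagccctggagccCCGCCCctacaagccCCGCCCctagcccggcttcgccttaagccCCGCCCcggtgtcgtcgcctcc
Pkd2: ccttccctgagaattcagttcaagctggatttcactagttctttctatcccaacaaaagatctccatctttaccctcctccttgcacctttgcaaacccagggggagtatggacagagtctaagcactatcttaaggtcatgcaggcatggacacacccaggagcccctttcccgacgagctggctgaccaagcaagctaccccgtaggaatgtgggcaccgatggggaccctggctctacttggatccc
The Trpc4 stretch is chr3:54155807-54156056 on the plus strand, the Trpc1 stretch chr9:95750349-95750598 on the minus strand and the Pkd2 stretch chr5:104459207-104459456 on the plus strand.

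The 3 promoters differed in these letters. Trpc1 held 3 GC boxes and 17 CpG pairs at 62.8% G and C, Trpc4 held 1 TATA box, 2 GC boxes and 12 CpG pairs at 66.4%, and Pkd2 held none of the 3 motifs and 4 CpG pairs at 52.8%. Among 32851 mouse promoters of the same length 14.4% held the E-box form, 12.4% the TATA box and 32.7% the GC box, and the median was 52.4% G and C with 6 CpG pairs. A match is a match of letters only. The GC box was added to the search after the sequences had been seen.

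Trpc4 (ENSMUSG00000027748, chromosome 3, 54156035 to 54318471) was at 13.7, 16.4, 13.9, 21.0 and 7.31 cpm in GUCY2Chi cells of mice 2, 7, 12, 14 and 15 and at 1.31, 0, 0.792, 0.375 and 0.685 cpm in GUCY2Cmed cells. The groups did not overlap, with mouse 14 highest and mouse 15 lowest among the GUCY2Chi libraries. Its log2 fold change was 4.51 (SE 0.62, edgeR adjusted p = 0.000325), from means of 14.4 ± 4.96 and 0.633 ± 0.488 cpm (SD, n = 5).

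Trpc7 (ENSMUSG00000021541, chromosome 13, 56773113 to 56895993) gave 15.5, 23.3, 9.31, 16.9 and 6.68 cpm in GUCY2Chi cells of mice 2, 7, 12, 14 and 15 and 1.03, 0.401, 2.66, 2.18 and 1.20 cpm in GUCY2Cmed cells. Every GUCY2Chi library lay above the highest GUCY2Cmed library, that of mouse 12. Means of 14.3 ± 6.57 and 1.49 ± 0.913 cpm (SD, n = 5) gave a log2 fold change of 3.24 (SE 0.50, edgeR adjusted p = 0.000680).

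Trpc1 (ENSMUSG00000032839, chromosome 9, 95705082 to 95750375) varied least among the GUCY2Chi libraries of the 10 higher genes, 1.80-fold, with 8.88, 9.17, 9.08, 10.8 and 5.98 cpm in mice 2, 7, 12, 14 and 15. In GUCY2Cmed cells it was at 1.78, 0, 2.16, 0.601 and 1.37 cpm. The groups were apart, and the GUCY2Cmed library of mouse 7 held no count, which allows up to 0.241 cpm. The log2 fold change was 2.89 (SE 0.66, edgeR adjusted p = 0.00555), from means of 8.78 ± 1.74 and 1.18 ± 0.878 cpm (SD, n = 5). This call depended on the fit: the adjusted p was 0.0227 with the mouse as block in edgeR, 0.0108 with the block in limma-voom and 0.0226 without mice 12 and 15. It was also between 0.0105 and 0.0168 when any of 7 libraries was left out, the GUCY2Chi libraries of mice 2, 7, 12 and 14 and the GUCY2Cmed libraries of mice 2, 14 and 15.

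Pkd2 (ENSMUSG00000034462, chromosome 5, 104459450 to 104505819) was counted at 8.0, 8.62, 3.18, 7.55 and 3.46 cpm in GUCY2Chi cells of mice 2, 7, 12, 14 and 15 and at 0.562, 1.77, 0.432, 0.751 and 1.37 cpm in GUCY2Cmed cells. Mice 12 and 15 gave the lowest GUCY2Chi libraries, still above every GUCY2Cmed library. From means of 6.16 ± 2.62 and 0.976 ± 0.569 cpm (SD, n = 5), the log2 fold change was 2.65 (SE 0.48, edgeR adjusted p = 0.00161).

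Pkd1 (ENSMUSG00000032855, chromosome 17, 24549834 to 24596508) was at 12.04, 9.04, 8.93, 9.17 and 4.79 cpm in GUCY2Chi cells of mice 2, 7, 12, 14 and 15 and at 3.93, 1.93, 3.82, 2.03 and 2.82 cpm in GUCY2Cmed cells. The gap between the groups was narrow, from 3.93 to 4.79 cpm. Pkd1 changed less than Pkd2, with a log2 fold change of 1.60 (SE 0.32, edgeR adjusted p = 0.00277) between means of 8.79 ± 2.59 and 2.91 ± 0.951 cpm (SD, n = 5), although the difference between these 2 genes was not tested. The 3′ end of Pkd1 overlaps that of Tsc2 on the other strand by 693 bases, and the strand setting of the counting is not given in the sources used here.

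TMEM63 proteins are pore-forming channels opened by strong membrane stretch. Tmem63a (ENSMUSG00000026519, chromosome 1, 180942344 to 180975112) was at 45.7, 33.3, 25.1, 50.6 and 18.0 cpm in GUCY2Chi cells of mice 2, 7, 12, 14 and 15 and at 9.46, 15.1, 11.96, 15.8 and 14.98 cpm in GUCY2Cmed cells. The GUCY2Chi library of mouse 15 came close to the GUCY2Cmed range without entering it. Means were 34.5 ± 13.7 and 13.5 ± 2.69 cpm (SD, n = 5), with a log2 fold change of 1.36 (SE 0.28, edgeR adjusted p = 0.00368). With the mouse as block the adjusted p was 0.0162 in edgeR and 0.00871 in limma-voom. Tmem63b had a log2 fold change of 0.86 (edgeR adjusted p = 0.0265) and Tmem63c of 1.57 (edgeR adjusted p = 0.0952), each with the larger value in GUCY2Chi cells in 5 of 5 mice and with groups that overlapped.

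Tmc3 is a relative of Tmc1 and Tmc2, whose products form the transduction channel of inner ear hair cells. It was counted 9, 5, 8, 16 and 9 times in GUCY2Chi libraries of mice 2, 7, 12, 14 and 15, or 0.605, 0.301, 0.606, 1.23 and 0.567 cpm, and at most 1 time in any GUCY2Cmed library. Against a floor of 3 counts in each GUCY2Cmed library, 0.244 cpm on average, Tmc3 (ENSMUSG00000038540, chromosome 7, 83584927 to 83625614) was at least 2.72-fold higher in GUCY2Chi cells (edgeR adjusted p = 0.00264). The mouse as block ended the edgeR call, with an adjusted p of 0.0163, but not that of limma-voom (0.00688). Over 28567 bases Tmc3 overlaps the antisense gene Gm16638, which held 109 reads in all against 49 for Tmc3, so the source of some of these reads is uncertain.

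**Figure D2:**
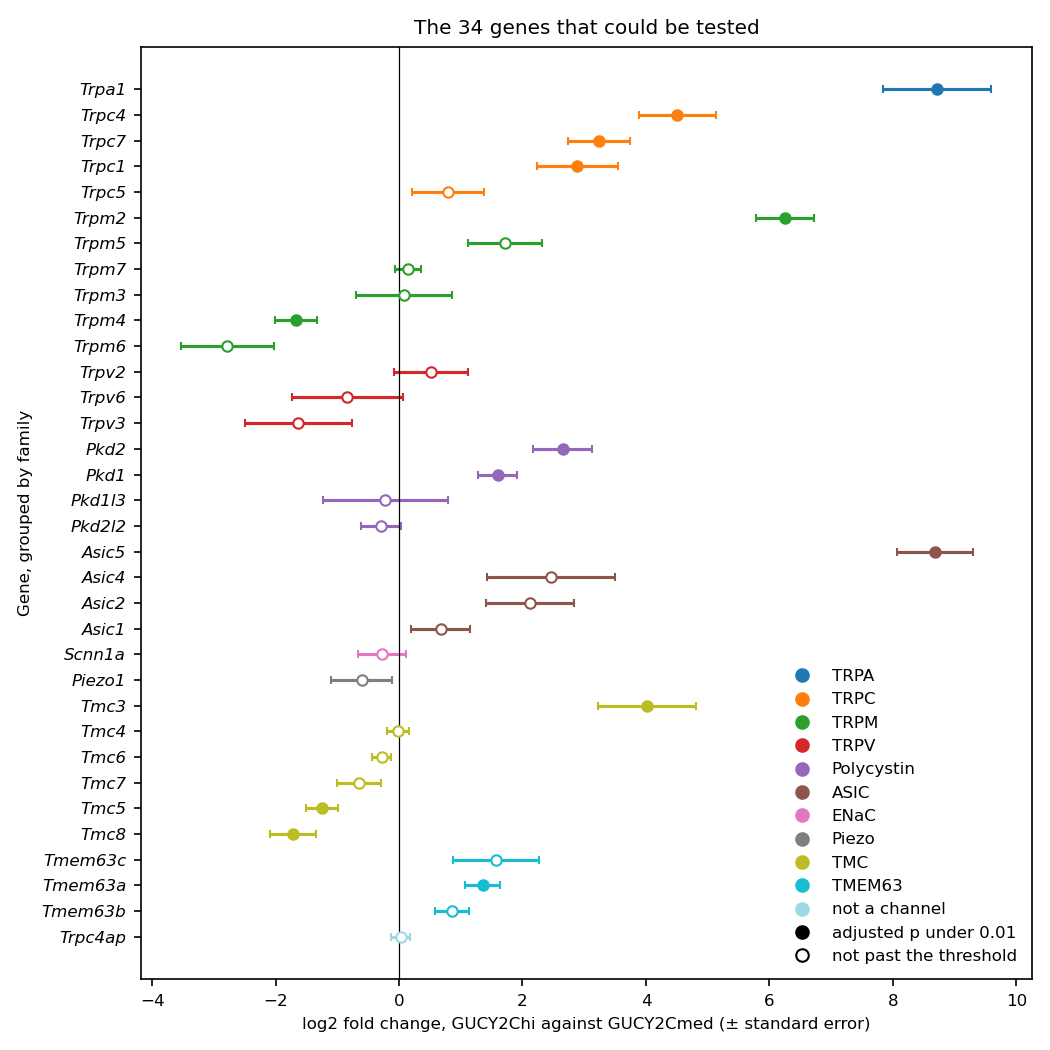
Log2 fold change, GUCY2Chi over GUCY2Cmed, with its standard error, of the 34 genes that could be tested, grouped and coloured by family. Filled points had an edgeR adjusted p under 0.01 and open points did not. Values run from 8.72 for Trpa1 to -2.78 for Trpm6, which was not called.

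Trpm4, Tmc5 and Tmc8 were lower in GUCY2Chi cells. TRPM4 is a calcium-activated channel for monovalent cations that depolarizes cells, and TMC8, with TMC6, is known for the skin disorder that follows its loss. Trpm4 (ENSMUSG00000038260, chromosome 7, 45302632 to 45333780) was at 27.6, 15.8, 40.5, 22.7 and 50.9 cpm in GUCY2Chi cells of mice 2, 7, 12, 14 and 15 and at 108, 56.6, 78.4, 118 and 139 cpm in GUCY2Cmed cells. GUCY2Chi libraries of mice 12 and 15 were the highest of their group, below every GUCY2Cmed library. Means were 31.5 ± 14.1 and 99.99 ± 32.7 cpm (SD, n = 5), with a log2 fold change of -1.67 (SE 0.34, edgeR adjusted p = 0.00301).

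Tmc8 (ENSMUSG00000050106, chromosome 11, 117782076 to 117793110) gave 3.36, 2.47, 7.95, 2.0 and 5.79 cpm in GUCY2Chi cells and 18.4, 11.6, 13.6, 11.3 and 15.9 cpm in GUCY2Cmed cells of mice 2, 7, 12, 14 and 15. Mice 12 and 15 were again highest within GUCY2Chi cells. The log2 fold change was -1.71 (SE 0.37, edgeR adjusted p = 0.00421), with means of 4.32 ± 2.50 and 14.2 ± 3.02 cpm (SD, n = 5). Its neighbour Tmc6, which shares 123 bases with it on the other strand, was at 41.4 ± 5.26 and 50.3 ± 7.24 cpm (log2 fold change -0.28, edgeR adjusted p = 0.168).

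Tmc5 (ENSMUSG00000030650, chromosome 7, 118597297 to 118675086) was at 32.0, 23.8, 52.3, 25.9 and 56.0 cpm in GUCY2Chi cells and at 102, 71.5, 78.7, 85.2 and 115 cpm in GUCY2Cmed cells of mice 2, 7, 12, 14 and 15. The order of the GUCY2Chi libraries put mice 15 and 12 first here too. Means of 38.02 ± 15.1 and 90.4 ± 17.6 cpm (SD, n = 5) gave a log2 fold change of -1.25 (SE 0.26, edgeR adjusted p = 0.00388).

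Each of the 3 lower calls was lost when any of 3 to 6 libraries was left out, while the log2 fold changes stayed between -1.88 and -1.46 for Trpm4, between -2.05 and -1.53 for Tmc8 and between -1.40 and -1.09 for Tmc5. Over all genes, the 10 fits without 1 library each called between 512 and 1609 lower, against 1381 with every library. Trpm4 was not called without the GUCY2Chi library of mouse 2 (edgeR adjusted p = 0.0128) or the GUCY2Cmed library of mouse 2 (0.0107) or mouse 15 (0.0133). Tmc8 was not called without the GUCY2Chi library of mouse 2 (0.0165) or mouse 7 (0.0146), or the GUCY2Cmed library of mouse 2 (0.0153), mouse 12 (0.0127) or mouse 15 (0.0151). Tmc5 was not called without the GUCY2Chi library of mouse 2 (0.0178), mouse 7 (0.0146) or mouse 14 (0.0105), or the GUCY2Cmed library of mouse 2 (0.0151), mouse 12 (0.0121) or mouse 15 (0.0180). With the mouse as block, all 3 stayed under 0.01 in edgeR, between 0.00324 and 0.00713. The summed enterocyte markers were highest in the same GUCY2Chi libraries, those of mice 12 and 15, and 2 of 12 of these markers were called lower. Of the 12, 11 had an unadjusted p under 0.05, 10 were called by DESeq2 and 8 by limma-voom, and their median log2 fold change was -2.36. Without mice 12 and 15 all 3 genes were called, with log2 fold changes of -2.10 for Trpm4, -2.39 for Tmc8 and -1.66 for Tmc5. The part of enterocyte RNA in these differences was not tested.

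Scaling by library size alone, without TMM, moved the median log2 fold change of all genes by 0.29 and the calls over all genes from 2186 higher and 1381 lower to 2910 higher and 557 lower. Under that scaling Trpm4 was at -1.37 and Tmc8 at -1.45, both still called, and Tmc5 at -0.97 was not (edgeR adjusted p = 0.0133). Tmc4 had a log2 fold change of -0.023 with TMM and 0.25 without, and neither was called.

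Compared per transcript length, as deposited FPKM, which divide fragment counts by length and depth, Asic5 was the most abundant of all 52 genes in GUCY2Chi cells. It reached 338 ± 181 FPKM (SD, n = 5), between 99.4 in mouse 15 and 516 in mouse 2, against 0.659 ± 0.300 in GUCY2Cmed cells. Tmc4 followed with 210 ± 28.3 FPKM, and its range of 174 to 237 lay inside that of Asic5, so the order of these 2 genes is within their spread. Tmc4 was the most abundant of the 52 in GUCY2Cmed cells, at 176 ± 13.6 FPKM, and its log2 fold change in counts was -0.023 (edgeR adjusted p = 0.946). Trpa1 was the next channel gene in GUCY2Chi cells, at 45.3 ± 30.2 FPKM, in a group with Tmc6 (39.9 ± 3.00), Tmem63a (31.2 ± 11.4) and Tmem63b (30.2 ± 10.7) whose ranges overlapped. Below these stood Trpm4 at 14.5 ± 6.91, Tmc5 at 14.2 ± 5.78 and Trpm2 at 11.5 ± 5.69 FPKM, again with overlapping ranges.

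The receptor-operated and polycystin genes were much less abundant. In GUCY2Chi cells Trpc7 was at 5.60 ± 2.97, Trpc4 at 5.55 ± 1.79, Trpc1 at 3.68 ± 0.647 and Pkd1 at 3.29 ± 0.971 FPKM. In GUCY2Cmed cells Asic5 ranked 15 and Trpa1 33 of the 52 genes, whereas Trpm4 ranked 4 with 37.6 ± 11.0 FPKM. In GUCY2Chi cells 22 of the 52 genes had a mean above 1 FPKM. Dividing TMM cpm by the gene length in the same table, on which the deposited FPKM are not based, left 17 above 1 and kept Asic5 and Tmc4 in ranks 1 and 2, with Trpa1 at rank 3 and Pkd1 at 22 instead of 15.

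**Figure D3:**
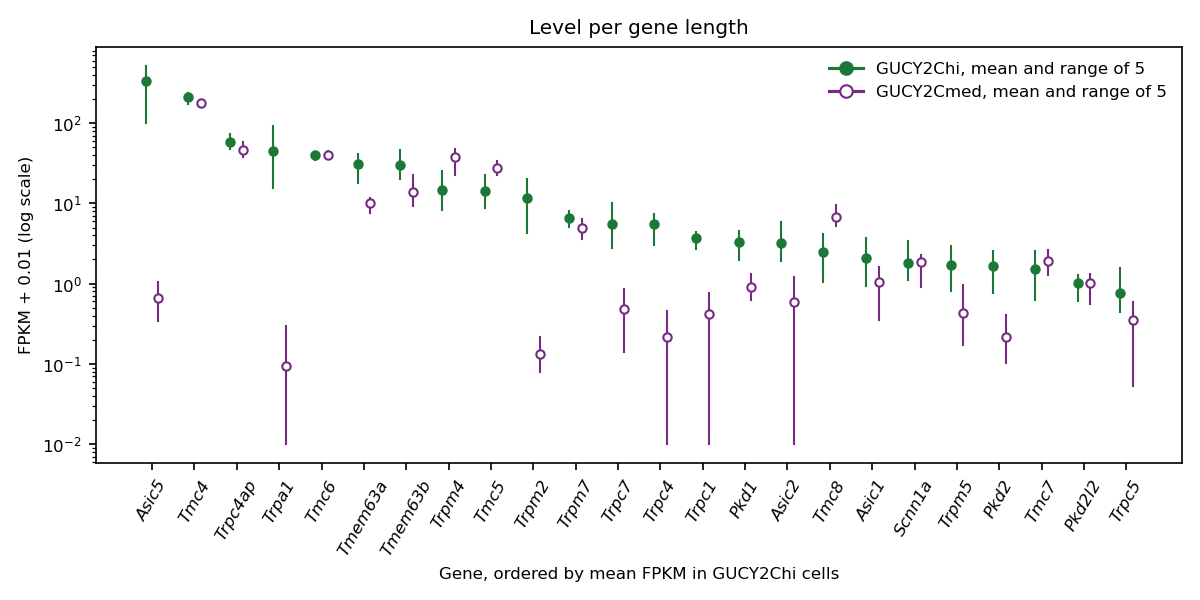
Deposited FPKM plus 0.01 (log scale) of the 24 genes with the highest mean in GUCY2Chi cells, in order of that mean. Points are means and lines the range over 5 libraries, filled for GUCY2Chi and open for GUCY2Cmed cells. Asic5 had a mean of 338 FPKM in GUCY2Chi and 0.659 in GUCY2Cmed cells, whereas the ranges of Tmc4 overlapped.

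Levels of the 10 higher genes were also set against the summed enterochromaffin markers of each GUCY2Chi library. The summed enterochromaffin markers (Tph1, Slc18a1, Lmx1a, Fev, Tac1 and Chga) were 15290, 19515, 11271, 22811 and 2910 cpm in mice 2, 7, 12, 14 and 15, a 7.84-fold range that was 2.02-fold without mouse 15. Chga, which is also on the enteroendocrine list, was the largest part, at 10677, 13609, 7298, 15797 and 1428 cpm in these mice. Per 1000 cpm of these markers, Asic5 lay between 23.6 and 41.7 cpm, a 1.77-fold range against 5.62-fold before the division. For Trpa1 the range was 2.15-fold against 7.07-fold before, for Trpm2 2.14-fold against 4.46-fold, and for Trpc7 3.10-fold against 3.50-fold. Ranges of the other 6 genes were wider after the division, from 2.99-fold for Trpc4 to 12.6-fold for Tmc3. Without mouse 15 the ratios of 9 of the 10 genes spanned 1.46-fold to 1.97-fold, and Tmc3 spanned 3.50-fold. Asic5 stayed at 1.77-fold and Trpc1 reached 1.72-fold. Undivided ranges without mouse 15 were 1.22-fold for Trpc1, 1.35-fold for Pkd1, 1.54-fold for Trpc4, 1.62-fold for Trpm2 and 2.02-fold for Tmem63a. They were 2.395-fold for Asic5, 2.51-fold for Trpc7, 2.71-fold for Pkd2, 3.48-fold for Trpa1 and 4.09-fold for Tmc3. The division thus widened the ranges of Trpc1 and Pkd1 and narrowed the others, those of Trpc4 and Trpm2 only slightly. Set against the summed enteroendocrine markers instead, the ranges over 5 libraries were wider for each of the 10 genes. They were 2.40-fold for Asic5, 3.04-fold for Trpm2, 3.42-fold for Trpa1 and 3.72-fold for Trpc7. Without mouse 15 the enteroendocrine ratios spanned less for Asic5 (1.61-fold), Trpc7 (1.30-fold) and Pkd2 (1.20-fold), and more for the others. The ranges without mouse 15 were added after the data had been seen. These ratios describe 5 libraries that share their totals with the markers, and were not tested. In the enteroendocrine sums of 50676, 61531, 24210, 56910 and 6051 cpm, Chgb was the largest part, at 32643, 41850, 13050, 33229 and 2467 cpm. The 2 sums thus rest most on Chga and Chgb, and do not measure enterochromaffin cells apart from other endocrine cells.

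Among the acid-sensing channels other than Asic5, none of 3 tested passed the threshold in edgeR, 2 had an unadjusted p under 0.05, and 1 was called by DESeq2 and 0 by limma-voom. ASIC1 and ASIC2 are proton-gated sodium channels of neurons. Asic1 was at 1.55, 5.43, 3.26, 2.62 and 3.78 cpm in GUCY2Chi cells of mice 2, 7, 12, 14 and 15 and at 3.00, 0.883, 2.88, 2.85 and 0.770 cpm in GUCY2Cmed cells. Its groups overlapped (log2 fold change 0.68, edgeR adjusted p = 0.298). Asic2 was at 10.3, 14.5, 6.96, 5.86 and 5.67 cpm in GUCY2Chi cells and at 2.25, 0, 4.03, 2.48 and 1.11 cpm in GUCY2Cmed cells. Its groups did not overlap, yet the log2 fold change of 2.12 (SE 0.71) missed the threshold (edgeR adjusted p = 0.0345), which it passed in DESeq2 (adjusted p = 0.00629) and without the GUCY2Cmed library of mouse 7 (edgeR adjusted p = 0.00849). The adjusted p was 0.0964 with the mouse as block in edgeR, 0.0663 with the block in limma-voom and 0.0765 without mice 12 and 15. Asic4 had a log2 fold change of 2.47 (edgeR adjusted p = 0.0807) at 0.474 ± 0.341 and 0.0720 ± 0.161 cpm. Asic3, the acid sensor of nociceptors, fell short of the filter with at most 15 counts, between 0 and 0.315 cpm in GUCY2Chi and between 0.468 and 1.13 cpm in GUCY2Cmed cells. Asic2 and Trpm6, the uncalled genes without overlap, were chosen for these details after their values had been seen.

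Transcripts typical of forebrain neurons were set beside the levels of several of these genes, and no association between them was tested. Of 11 forebrain neuron markers none was called higher and 1, Ppp1r1b, lower, and their sum ran from 93.3 to 1468 cpm in GUCY2Chi and from 768 to 1236 cpm in GUCY2Cmed cells, with no marker at 0 in either group. Ppp1r1b alone was at 428 to 756 cpm in GUCY2Cmed and 60.7 to 256 cpm in GUCY2Chi cells, and the other 10 markers together ran from 11.6 to 692 cpm in GUCY2Cmed and from 31.0 to 1257 cpm in GUCY2Chi cells. The mean level of all 11 markers, as log2(cpm + 0.5), was 1.38, 3.73, 3.74, 1.21 and 5.15 in GUCY2Chi cells of mice 2, 7, 12, 14 and 15. In GUCY2Cmed cells of these mice it was 4.27, 0.82, 4.59, 4.18 and 3.63. The GUCY2Cmed library of mouse 7, lowest on this list, was at 0 for Asic2, Trpc1, Trpc4, Trpm3 and Tmem63c. It was also the lowest of its group for Trpc5, at 0.161 cpm, and for Trpv2, at 0.0803 cpm. Trpc5 was highest in the GUCY2Chi library of mouse 15, at 4.47 cpm, where the forebrain list was highest. Trpc4 and Trpc1 were instead highest in the GUCY2Chi library of mouse 14, where the list was lowest of its group. Among GUCY2Chi libraries, Trpc4, Trpc1 and Asic2 were lowest in that of mouse 15, at 7.31, 5.98 and 5.67 cpm.

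With the forebrain list as a covariate, edgeR gave Asic2 a log2 fold change of 2.58 (adjusted p = 0.00965), Trpc1 3.08 (adjusted p = 0.00254) and Trpc4 4.52 (adjusted p = 0.000211). Asic1 was at 0.90 (adjusted p = 0.0748) and Trpc5 at 1.15 (adjusted p = 0.0470) in the same fit. Without the covariate Trpc5 had a log2 fold change of 0.79 (edgeR adjusted p = 0.311).

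**Figure D4:**
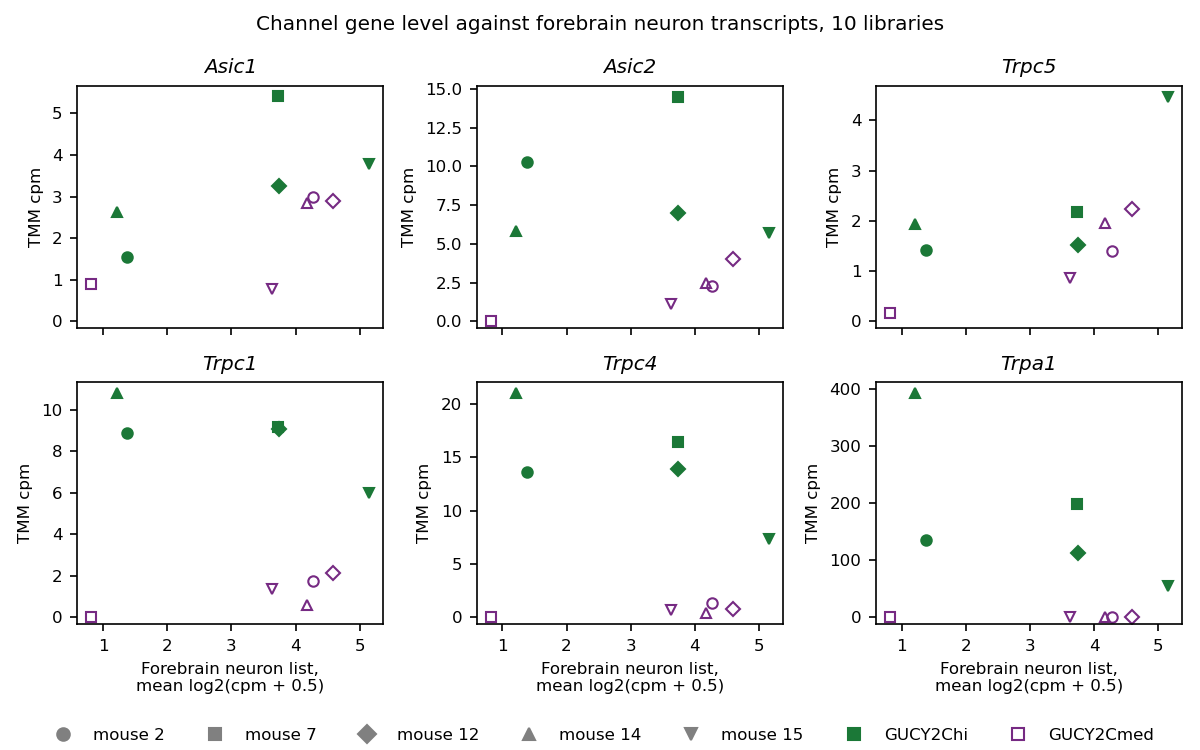
TMM-normalized cpm of 6 channel genes against the mean log2(cpm + 0.5) of 11 forebrain neuron markers in the 10 libraries, 1 symbol per library, the shape giving the mouse, filled for GUCY2Chi and open for GUCY2Cmed cells. The GUCY2Cmed library of mouse 7 sits at the far left at 0.82, and Trpc4 and Trpa1 are highest at 1.21, in the GUCY2Chi library of mouse 14.

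TRPM channels beyond Trpm2 and Trpm4 were not called in edgeR, where 2 of the 4 tested had an unadjusted p under 0.05, whereas DESeq2 and limma-voom called 1 each, Trpm6. Trpm5 was at 6.52, 1.87, 4.69, 4.47 and 1.64 cpm in GUCY2Chi cells of mice 2, 7, 12, 14 and 15 and at 0.562, 0.562, 0.432, 1.43 and 2.82 cpm in GUCY2Cmed cells. It was above its GUCY2Cmed partner in 4 of 5 mice, with a log2 fold change of 1.72 (SE 0.60, edgeR adjusted p = 0.0394). Trpm5 overlaps Tssc4 on the other strand by 1845 bases, and Tssc4 held 5093 reads in all against 345. Of 10 tested tuft cell markers 1, Sh2d6, was called higher and 1, Ltc4s, lower, and the list's sum was 37.3 to 60.9 cpm in GUCY2Chi and 15.7 to 28.2 cpm in GUCY2Cmed cells. The Sh2d6 call held only without the GUCY2Chi or the GUCY2Cmed library of mouse 15, and its edgeR adjusted p was up to 0.0173 without any other library and 0.0445 with the mouse as block. Under the block Ltc4s was at 0.0104. The defining tuft genes Gnat3 and Il25 were at most 0.241 and 0.404 cpm in any library, and the part of tuft cell RNA in the Trpm5 values was not tested.

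Trpm6 was at 0.0672, 0, 0.151, 0.154 and 0.567 cpm in GUCY2Chi cells and at 2.43, 0.642, 1.22, 1.20 and 1.28 cpm in GUCY2Cmed cells of mice 2, 7, 12, 14 and 15. The groups did not overlap, and the log2 fold change of -2.78 (SE 0.75) narrowly missed the threshold (edgeR adjusted p = 0.0125), which it passed in DESeq2 (adjusted p = 0.00129), in limma-voom (adjusted p = 0.00559), with the forebrain covariate (edgeR adjusted p = 0.00480) and without the GUCY2Chi library of mouse 15 (edgeR adjusted p = 0.00215). It missed it with the mouse as block in edgeR (adjusted p = 0.0221) and limma-voom (adjusted p = 0.0133), and without mice 12 and 15 (edgeR adjusted p = 0.0148). Trpm7, its ubiquitous relative, was at 14.01 ± 2.61 and 12.7 ± 2.85 cpm (log2 fold change 0.14, edgeR adjusted p = 0.644). Trpm3 was at most 1.51 cpm in any library and Trpm8, the cold receptor, reached at most 2 counts.

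TRPV channels were scarce in both groups, and none of the 3 tested was called by edgeR, DESeq2 or limma-voom or had an unadjusted p under 0.05 in edgeR. Trpv6 was counted 3, 0, 15, 4 and 18 times in GUCY2Chi libraries of mice 2, 7, 12, 14 and 15 and 4, 6, 36, 4 and 14 times in GUCY2Cmed libraries. The highest counts came from mice 12 and 15 in both groups (log2 fold change -0.84, SE 0.90, edgeR adjusted p = 0.509). Trpv1, the capsaicin receptor, was counted 1, 5, 0, 0 and 1 times in GUCY2Chi and 6, 0, 2, 1 and 0 times in GUCY2Cmed libraries of those mice and was not tested. Trpv3 had a log2 fold change of -1.63 (edgeR adjusted p = 0.163) and Trpv2 of 0.52 (edgeR adjusted p = 0.544), Trpv4 reached at most 5 counts and Trpv5 had none.

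Piezo RNA was near the limit of detection. Piezo2 was counted 1, 2, 2, 0 and 0 times in the GUCY2Chi libraries of mice 2, 7, 12, 14 and 15 and was listed at 0 in all 5 GUCY2Cmed libraries. A count of 0 allows up to 3 counts, which is 0.281 cpm in the shallowest GUCY2Cmed library, so a difference was not detectable at this depth. Piezo1 was at 0.269, 0.181, 0.303, 0.308 and 0.819 cpm in GUCY2Chi and at 0.468, 0.482, 0.504, 0.751 and 0.685 cpm in GUCY2Cmed cells, with overlapping groups (log2 fold change -0.60, edgeR adjusted p = 0.375). Its gene overlaps Ctu2 on the other strand, which held 2076 reads in all against 64.

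The epithelial sodium channel needs its alpha, beta and gamma subunits for full current. Scnn1a, the alpha subunit, was at 8.0, 2.71, 4.54, 4.16 and 2.39 cpm in GUCY2Chi cells of mice 2, 7, 12, 14 and 15 and at 5.24, 2.49, 5.47, 6.08 and 7.19 cpm in GUCY2Cmed cells. The groups overlapped (log2 fold change -0.28, edgeR adjusted p = 0.622). Scnn1b and Scnn1g, the beta and gamma subunits, reached at most 1 and 3 counts.

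The remaining polycystin and TMC genes were also uncalled or untested. Pkd1l3, which pairs with PKD2L1 in sour taste cells, was counted 3, 6, 0, 1 and 12 times in GUCY2Chi and 9, 8, 1, 2 and 0 times in GUCY2Cmed libraries of mice 2, 7, 12, 14 and 15. These groups overlapped (log2 fold change -0.22, SE 1.01, edgeR adjusted p = 0.900), and Pkd2l1 had no count. Pkd2l2 was at 2.07 ± 0.479 and 2.55 ± 0.747 cpm (edgeR adjusted p = 0.528) and Tmc7 at 2.63 ± 1.07 and 4.14 ± 1.32 cpm (edgeR adjusted p = 0.183). Of the 18 untested genes 4, Pkd2l1, Trpc2, Trpm1 and Trpv5, had no count in any library and 10, these 4 included, had at most 3 counts in every library. The other genes of the 10 were Piezo2, Scnn1b, Scnn1g, Tmc1, Tmc2 and Trpm8. Highest counts were 4 for Trpc6, 6 for Pkd1l2 and 4 for Pkd1l1. Trpc4ap was at 88.0 ± 12.8 and 86.3 ± 11.5 cpm (edgeR adjusted p = 0.919), and Trpc5os reached at most 4 counts.

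Genes that work with these channels were read from 8 lists of 65 genes in all, of which 64 were in the table and 55 were tested. In GUCY2Chi cells 11 were higher and 5 lower, which is 20% and 9.09% of those tested against 13.9% and 8.79% over all genes, and the median log2 fold change was -0.068, against 0.094 over all genes tested. Among the called partners, Lhfpl5, Cdh23, Slc8a1, Kcnk2 and Kcnk3 reached the filter through GUCY2Chi libraries alone. In GUCY2Cmed cells Kcnk3 had a median of 0.451 cpm, and the others were at most 0.360, 0.225, 0.216 and 0.216 cpm. For these genes the filter itself favoured a higher level in GUCY2Chi cells. The counts of calls therefore say nothing of the lists as a whole. Of the TMC channel complex partners, 4 of 5 tested genes were higher, with a median of 2.38. Lhfpl5, a subunit of the hair cell complex, was at 8.47, 5.55, 4.69, 13.8 and 3.53 cpm in GUCY2Chi cells of mice 2, 7, 12, 14 and 15 and at most 0.360 cpm in GUCY2Cmed cells (log2 fold change 5.04, SE 0.63, edgeR adjusted p = 0.000167). Cdh23, the upper part of the tip link, was at least 12.03-fold higher against the floor of 3 counts (edgeR adjusted p = 0.000803). Tmie had a log2 fold change of 2.38 (SE 0.45, edgeR adjusted p = 0.00210) and Cib2 of 1.95 (SE 0.32, edgeR adjusted p = 0.000945). Cib3 was not tested and Pcdh15, the lower part of the tip link, was not called. All 4 calls held with the mouse as block and without each library in turn.

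Store-operated partners of the TRPC channels gave 4 higher and 1 lower of 11 tested, with a median of 0.83. Orai3 (log2 fold change 1.81, SE 0.23, edgeR adjusted p = 0.000204) and the calcium store sensor Stim2 (1.36, SE 0.27, edgeR adjusted p = 0.00254) were higher, and Orai1, the main pore of store-operated entry, was lower (-0.93, SE 0.18, edgeR adjusted p = 0.00232). Orai1 is named here because it was the only lower gene of the list, after its values had been seen. Itpr3, the inositol trisphosphate receptor that is also the only called gene of the TRPM5 cascade (5 tested, median 1.0), had a log2 fold change of 2.04 (SE 0.50, edgeR adjusted p = 0.00840). It was higher in 4 of 5 mice, at 6.17 and 7.36 cpm in GUCY2Chi and GUCY2Cmed cells of mouse 15, and its adjusted p was 0.0193 with the mouse as block. Leaving out any library other than the GUCY2Chi library of mouse 15 or the GUCY2Cmed library of mouse 7 also ended the call, with an adjusted p of up to 0.0219. Stim1, a further store sensor, was higher by a log2 fold change of 1.10 (SE 0.26, edgeR adjusted p = 0.00656), with 0.0217 under the block. It stayed called only without the GUCY2Chi library of mouse 2 or mouse 15 or the GUCY2Cmed library of mouse 12, and reached 0.0187 without the others.

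Calcium uptake through TRPV6 hands calcium to buffers and pumps, and 1 of 8 tested genes of that route was higher and 1 lower, with a median of 0.0072. Vdr, the vitamin D receptor, was lower, at 90.2, 93.4, 73.2, 79.1 and 76.6 cpm in GUCY2Chi and 388, 387, 123, 235 and 264 cpm in GUCY2Cmed cells of mice 2, 7, 12, 14 and 15 (log2 fold change -1.76, SE 0.28, edgeR adjusted p = 0.000873). Slc8a1, a sodium-calcium exchanger, was at least 34.1-fold higher against the floor (edgeR adjusted p = 6.64e-05). Of 8 tested regulators of the epithelial sodium channel 2 were lower, with a median of -0.75: St14, a protease that cleaves its activators (-1.28, edgeR adjusted p = 0.00222), and Nr3c2, the mineralocorticoid receptor (-0.99, edgeR adjusted p = 0.00232). Nr3c2 was at an adjusted p of 0.0103 with the mouse as block and 0.0105 without the GUCY2Cmed library of mouse 15.

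Other stretch- and acid-gated channels gave 2 higher of 9 tested, with a median of -0.18. Kcnk2, the stretch-activated potassium channel TREK-1, was at least 14.8-fold higher against the floor (edgeR adjusted p = 0.000334), and the acid-sensitive Kcnk3, TASK-1, had a log2 fold change of 1.98 (SE 0.48, edgeR adjusted p = 0.00729). The Kcnk3 call was lost with the mouse as block (0.0394) and without any library other than the GUCY2Chi library of mouse 15 or the GUCY2Cmed library of mouse 12 (up to 0.0213). Of 4 tested Piezo modifiers and stomatins Stoml2 was lower, by a log2 fold change of -0.69 (edgeR adjusted p = 0.00915), with a median of -0.10 over the list. That call was lost with the mouse as block (0.0385) and without any library other than the GUCY2Chi library of mouse 15 (up to 0.0359). None of 6 tested endolysosomal genes was called by edgeR, DESeq2 or limma-voom, 1 had an unadjusted p under 0.05 in edgeR, and the median was 0.12.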

How the data were processed

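Sequencing covered 10 libraries of FACS-sorted mouse small intestinal cells. Libraries were made with the NEBNext Ultra II kit by a sequencing provider, who aligned reads with STAR and counted them per gene. The labels name mm9 as genome build, but all 52 symbols described lie where RefSeq GRCm38.p6 places them and 7 of 44 where NCBIM37 (mm9) does, so positions are on GRCm38. The counter and its strand setting are not given in the sources used here. The authors deposited raw read counts, FPKM and a gene length (in bases) per gene. The submitters' processing notes name limma 3.40.6 and edgeR 3.26.8. 10 further columns of normalized values and the authors' comparison columns (fold changes and p-values) were not used.

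Groups follow the labels. Counts were fitted in R 4.3.3 with edgeR 4.0.16 (quasi-likelihood test, TMM, no term for the mouse, filter of more than 0.5 cpm in at least 3 libraries, as in the study), which left 15703 of 54532 genes, with a biological coefficient of variation of 0.458. SE is the log2 fold change divided by the square root of F. Adjusted p-values are Benjamini-Hochberg over all genes tested. The test was checked on counts simulated with the dispersions of these data. There edgeR called 47 of 100 genes changed 4-fold, 2 of 100 changed 2-fold and 0 unchanged genes. A gene that was not called can therefore still differ. In the same check limma-voom called 51, 2 and 0 of these 3 kinds of genes, and DESeq2 69, 16 and 16. Of the 3 tools only DESeq2 thus called unchanged genes, which limits its calls here. Floors of 3 counts cover counting error only. Alternatives used limma 3.58.1 and DESeq2 1.42.0, a replicate block for the mouse, other scalings and filters, each library left out, mice 12 and 15 left out, and the mean forebrain marker level as covariate. Libraries with the same number were taken to come from the same mouse, which the labels do not state. Correlations of their deviations from the group means were -0.110, -0.223, 0.272, -0.124 and 0.0607 for mice 2, 7, 12, 14 and 15. Only the GUCY2Chi library of mouse 12 correlated best with the GUCY2Cmed library of its own number. Summaries were computed with pandas 2.3.3 and numpy 2.4.6 under Python 3.11.15, and figures drawn with matplotlib 3.10.9.

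Genes with an adjusted p under 0.01 are given in full, as are Trpa1, Trpm5, Trpv6, Trpc4, Piezo1, Piezo2, Trpm2, Trpv1, Asic1, Scnn1a and Pkd1l3 whatever their result, and list genes where called, at most 4 a list by absolute log2 fold change. The genes, the marker and partner lists and these rules were chosen with earlier results of these data known. Promoters are RefSeq's on GRCm38.p6, found for 42 of the 52 genes and 10 of the 13 called. The partner gene Pacc1 was not matched in the table. Marker lists not named in the report gave in edgeR no call among 8 goblet, 6 Paneth, 7 stem, 6 T cell and 3 myeloid and B cell markers tested, with 4, 1, 5, 0 and 1 at an unadjusted p under 0.05. DESeq2 called 1 goblet and 1 stem marker, and limma-voom 1 stem marker. Of 7 proliferation markers 5 were lower, and 1 of 8 glia, 1 of 7 enteric neuron, 1 of 1 sensory neuron and 2 of 2 mesenchyme and endothelium markers were higher. Values of 1 untested gene are not reported here.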

Additional observations from a re-analysis of the deposited data

Results flagged for a closer look

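In 68 groups of 5 libraries, 34 genes in each of 2 groups, the highest or lowest library was set against the rest by Dixon's ratio of gap to range, with a critical value of 0.710. In 5 groups a library stood apart. The critical value gives about 1 in 20 by chance for normally distributed values only. Low counts are not so distributed, so the number of groups cannot be set against that rate. Asic4 was counted in a single GUCY2Cmed library, that of mouse 12, at 0.360 cpm, and was at 0 in the other 4 (ratio 1.0). The GUCY2Chi library of mouse 15 was highest for 3 genes: Piezo1 at 0.819 cpm against 0.308 in the next library (ratio 0.80), Trpc5 at 4.47 against 2.17 cpm (ratio 0.752) and Trpm6 at 0.567 against 0.154 cpm (ratio 0.728). Trpv3 was highest in the GUCY2Cmed library of mouse 2, at 1.97 cpm against 0.601 (ratio 0.83). None of these 5 genes was called. The GUCY2Chi library of mouse 15 also held the least enteroendocrine and the most forebrain marker RNA of its group, and the part of either in these values was not tested.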

How the results depend on the processing

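Channel genes called numbered 10 higher and 3 lower, and between 9 and 11 higher and between 0 and 4 lower when single libraries were left out. Of the calls made with every library, 9 or 10 of the higher and 0 to 3 of the lower were kept, and up to 1 in each direction was gained. None of the lower calls was kept without the GUCY2Chi or GUCY2Cmed library of mouse 2 or the GUCY2Cmed library of mouse 15, and 1 without the GUCY2Chi library of mouse 7 or the GUCY2Cmed library of mouse 12. A minimum of 10 counts in every library left 2 higher, since only 13 of the 52 genes were then tested. With the mouse as replicate block, 7 were higher and 3 lower in edgeR and 9 and 3 in limma-voom, the calls of Tmc3, Trpc1 and Tmem63a being lost in edgeR and that of Trpc1 in limma-voom. The block changed no other call of a channel gene. Partner genes called numbered 11 higher and 5 lower, and leaving out single libraries gave totals of between 8 and 11 higher and between 3 and 8 lower (3 without the GUCY2Cmed library of mouse 15, 8 without the GUCY2Chi library of mouse 15). A minimum of 10 counts gave 6 higher and leaving out mice 12 and 15 gave 7. The block in edgeR and library size alone each gave 3 lower.

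Signs turned only for genes that were not called. Without TMM, Tmc4 was at 0.25 and Pkd1l3 at 0.071 (log2). Tmc4 was at 0.097 with at least 10 counts in every library and at 0.15 without mice 12 and 15, where Scnn1a was at 0.098. Leaving out single libraries gave Tmc4 -0.11 to 0.086, Pkd1l3 -0.47 to 0.076, Trpm3 -0.24 to 0.51 and Trpv6 -1.28 to 0.0040. The cause was not tested. Of the alternatives for called channel genes 224 kept direction and call and 27 lost the call. For uncalled genes 370 changed nothing, 9 passed the threshold and 15 turned sign. Levels above 1 FPKM numbered 22, or 17 by cpm per kilobase. Genes below about 1 cpm rest on few reads, and their values are limited by depth.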
